A study of Saccharomyces cerevisiae with 13 samples.

Results

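Amino acids that a yeast cell does not take up it makes itself, and the genes examined here build the aromatic amino acids, the branched-chain amino acids and lysine. They are 33 genes chosen by name as a pathway group: 13 of aromatic synthesis (tryptophan, phenylalanine and tyrosine), 10 of branched-chain synthesis (isoleucine, valine and leucine), 8 of lysine synthesis, and LEU3 and LYS14, which encode transcription factors of the leucine and lysine genes. All 33 were measured, each by a single probe set, among 5446 protein-coding genes of Saccharomyces cerevisiae on Affymetrix yeast 2.0 arrays. Every one of them was above background on all 13 arrays, where background is the level that 95% of the probe sets for S. pombe on the same array stay under. The dimmest value was 9.86-fold above it.

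The arrays hold mRNA of haploid cells grown at 30°C in rich medium (YPD) to the middle of logarithmic growth. In each of 5 deletion strains, 1 tRNA gene was replaced with a hygromycin B resistance marker, and 2 cultures of each, which the labels call biological replicates, were measured. The deletions ΔtM(CAU), ΔtR(CCU)J and ΔtL(GAG)G form what the study calls the SC group (6 arrays), and ΔtR(UCU)M2 and ΔtH(GUG)G1 form its MC group (4 arrays). SC stands for single-copy tRNA families, but the methionine strain, which lacks a copy of a multi-copy family (the initiator tRNA by the study's account, no copy being named in its label), was placed with them for its growth. The 3 wild-type (WT) arrays come from a strain that carries the same marker next to a different tRNA gene. The study gives Y5565 as the background of all strains, a MATα strain whose stated genotype includes deletions of CAN1, LYP1, URA3 and LEU2, a LEU2 reporter driven by the MFα1 promoter in place of MFα1, and a HIS3 reporter driven by the MFA1 promoter in place of CAN1. Each tRNA deletion is represented by a single strain, so the deletion and any other change in that strain cannot be told apart.

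The labels and the stated genotype were checked against the arrays. CAN1, URA3 and LYP1, the last of which encodes the lysine permease, were below background on all 13 arrays, and the α-cell genes MF(ALPHA)2, STE3 and SAG1 were high on every array, with log2 signals of 10.16 to 13.10. The 5 a-cell genes examined lay between 3.87 and 7.08 on the log2 scale, low but above background on all 13 arrays. MF(ALPHA)1 did not follow the genotype. Its log2 signal was 12.44 to 12.80 on all 6 SC arrays, against 2.79 to 4.53 on the MC arrays and 2.54 to 4.89 on the WT arrays. On these arrays the SC strains thus did not show the stated MFα1 replacement, and a shared background was not borne out. They differ from the MC and WT strains in this gene as well as in the deleted tRNA gene, and its part in the differences described here was not tested. Median signals of all genes ranged from 491.2 to 626.0 across arrays, highest on a ΔtR(CCU)J array, and all genes together had a median log2 difference of 0.17 between ΔtR(CCU)J and WT. The arrays measure mRNA of a whole culture, so fewer cells with an mRNA and less of it per cell cannot be told apart.

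As background, aromatic synthesis starts with the condensation of phosphoenolpyruvate and erythrose 4-phosphate and runs through chorismate, from which the tryptophan branch and the phenylalanine and tyrosine branch part. The branched-chain pathways share enzymes for isoleucine and valine in the mitochondrion, and leucine synthesis leaves from the valine precursor. Fungi make lysine through α-aminoadipate, starting from homocitrate. Many of these genes are activated by Gcn4, the transcription factor of general amino acid control, whose synthesis is controlled mainly at translation. Leu3 acts on leucine genes together with the intermediate α-isopropylmalate, and Lys14 acts on lysine genes together with α-aminoadipate semialdehyde.

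The clearest pattern was in ΔtR(CCU)J, the strain without the arginine tRNA whose anticodon is cognate to AGG codons. By the study's account, methylated tR(UCU) tRNAs can partly make up for its loss. In this strain 9 of the 33 genes fell relative to WT and none rose, at an adjusted p under 0.05 in limma (Benjamini-Hochberg over all 5446 genes). Those 9 were LYS1, LYS2, LYS4, LYS12 and LYS21 of lysine synthesis, ARO7, ARO4 and TRP3 of aromatic synthesis and ILV3 of branched-chain synthesis. Of all genes, 1.93% were called lower in this comparison and 8.56% in either direction (105 lower and 361 genes, or 6.63%, higher). At an unadjusted p under 0.05, 19 of the 33 genes were lower and 1 was higher, and 8.98% of all genes were lower. Fitted differences were below 0 for 7 of 8 lysine, 11 of 13 aromatic and 9 of 10 branched-chain genes, and for 32.9% of all genes. Both ΔtR(CCU)J arrays lay below all 3 WT arrays for 20 of the 33 genes, while 12.5% of all genes did so. By pathway these were 7 of 8 lysine genes, 9 of 13 aromatic genes, 4 of 10 branched-chain genes and neither regulator.

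**Figure D1:**
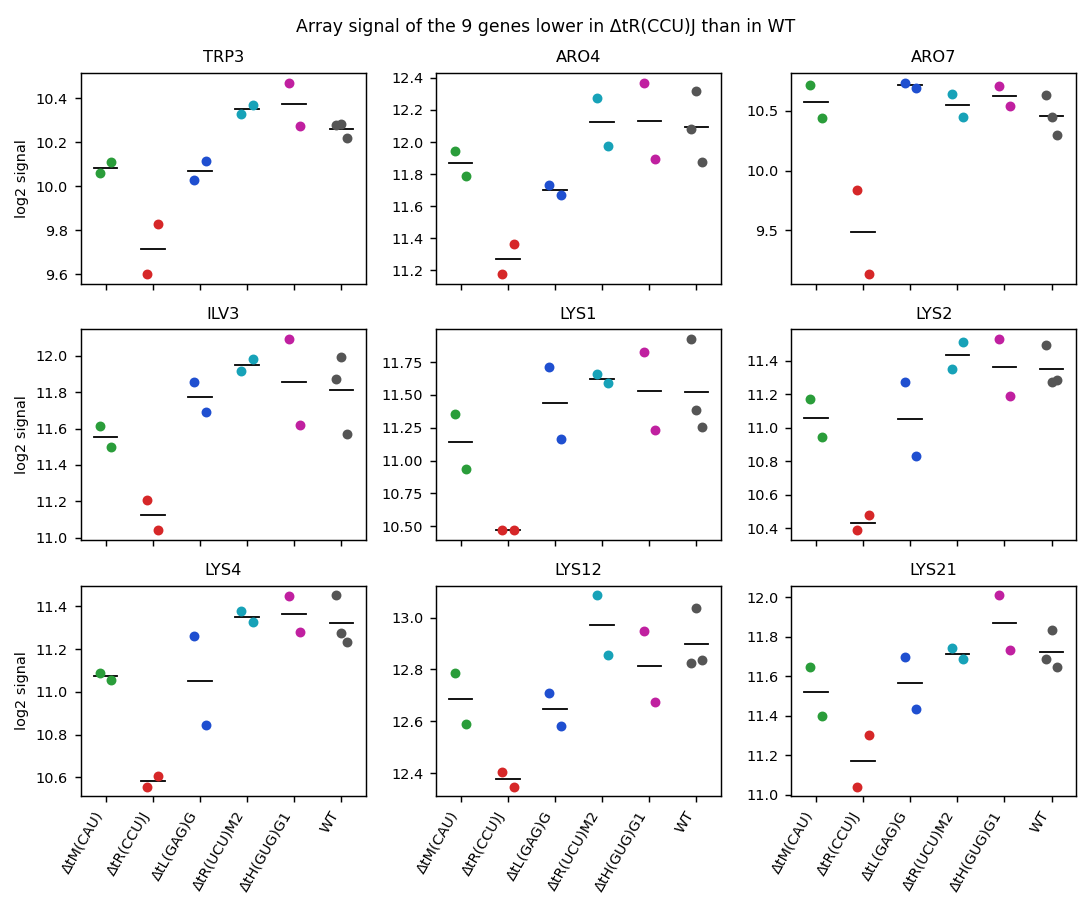
Log2 array signal (vertical axis, a separate scale per gene) of the 9 genes called lower in ΔtR(CCU)J, for each strain along the horizontal axis. Points are single arrays and short lines are strain means; both ΔtR(CCU)J arrays lie below all 11 other arrays in each of the 9 panels, for example 10.47 on both arrays for LYS1.

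In lysine synthesis, LYS1 encodes the saccharopine dehydrogenase that releases lysine in the last step. Its log2 signal was 10.47 on both ΔtR(CCU)J arrays, against 11.93, 11.38 and 11.25 on the WT arrays. LYS1 was thus at 48.3% of its WT level, a log2 difference of -1.05 (SE 0.26, limma adjusted p = 0.0386). LYS2 (YBR115C) encodes α-aminoadipate reductase, the enzyme whose product Lys14 responds to. LYS2 had 10.39 and 10.48 in ΔtR(CCU)J and 11.50, 11.27 and 11.29 in WT, a log2 difference of -0.92 (SE 0.17, limma adjusted p = 0.0202). The other 4 deletion strains had LYS2 signals of 10.83 to 11.53, so no array of another strain reached the ΔtR(CCU)J values.

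LYS4, for homoaconitase, had a log2 signal of 10.56 and 10.61 in ΔtR(CCU)J, against 11.45, 11.28 and 11.23 in WT. Its spread within ΔtR(CCU)J and within WT was small beside the log2 difference of -0.74 (SE 0.14, limma adjusted p = 0.0214). LYS12, for homoisocitrate dehydrogenase in the step that follows, had 12.41 and 12.35 in ΔtR(CCU)J, against 12.82, 13.04 and 12.84 in WT, a log2 difference of -0.52 (limma adjusted p = 0.0449). LYS12 and LYS21 kept their calls in the fewest alternatives (7 of 22 each), and for LYS12, after quantile normalization of the arrays its log2 difference was -0.18 (limma adjusted p = 0.478), and with the replicate number as a block it was -0.55 (limma adjusted p = 0.0562).

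Homocitrate synthase, which commits carbon to lysine, is encoded by the pair LYS20 and LYS21. LYS21 had 11.04 and 11.30 in ΔtR(CCU)J and 11.69, 11.83 and 11.65 in WT, a log2 difference of -0.55 (limma adjusted p = 0.0496), the call nearest the threshold, which was lost with the replicate number as a block (limma adjusted p = 0.0688). LYS20 had 11.96 and 12.30 in ΔtR(CCU)J and 12.64, 12.56 and 12.63 in WT, a log2 difference of -0.48 that stayed just outside it (limma adjusted p = 0.0567). Both genes were below every WT array in this strain, and their differences from WT were of similar size. LYS9, for the other saccharopine dehydrogenase, was uneven: 12.23 and 12.76 in ΔtR(CCU)J, against 12.98, 13.30 and 13.06 in WT, with a log2 difference of -0.62 (limma adjusted p = 0.0717). LYS5 is not a pathway enzyme in the strict sense but attaches the phosphopantetheine group that activates Lys2. It had 8.53 and 8.38 in ΔtR(CCU)J and 8.26, 8.51 and 8.55 in WT, a log2 difference of 0.01 (95% interval -0.29 to 0.31), and was the single lysine gene whose ΔtR(CCU)J arrays overlapped WT.

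In aromatic synthesis, the lowest fitted difference was that of ARO7, for chorismate mutase, the enzyme that opens the phenylalanine and tyrosine branch. ARO7 (YPR060C) had 9.83 and 9.13 in ΔtR(CCU)J, against 10.63, 10.44 and 10.29 in WT. The replicates differed by more than those of the other called genes, yet both were below all 11 other arrays, of which the 8 from other deletion strains lay between 10.44 and 10.73. The log2 difference from WT was -0.97 (SE 0.20, limma adjusted p = 0.0262), or 50.9% of the WT level.

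The entry to the pathway is shared by 2 isozymes of DAHP synthase, Aro3, which phenylalanine inhibits, and Aro4, which tyrosine inhibits. ARO4 had 11.18 and 11.37 in ΔtR(CCU)J, against 12.08, 12.32 and 11.88 in WT, a log2 difference of -0.82 (SE 0.18, limma adjusted p = 0.0309). ARO3 had 10.82 and 10.85 in ΔtR(CCU)J, against 11.42, 11.75 and 11.25 in WT, a log2 difference of -0.64 that did not pass (limma adjusted p = 0.143). ARO3 was close to its ΔtR(CCU)J level in ΔtM(CAU) as well (10.98 and 10.88), so its low values were not confined to 1 strain.

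Tryptophan synthesis was represented among the calls by TRP3, whose product carries a subunit of anthranilate synthase and indole-3-glycerol-phosphate synthase. TRP3 had 9.60 and 9.83 in ΔtR(CCU)J, against 10.28, 10.28 and 10.22 in WT, a log2 difference of -0.54 (SE 0.11, limma adjusted p = 0.0262). The other subunit of anthranilate synthase is encoded by TRP2, with a log2 difference of -0.27 (limma adjusted p = 0.230). TRP5, for tryptophan synthase, differed by -0.06 on the log2 scale (95% interval -0.32 to 0.21). In the common trunk, ARO1, for the arom protein of several activities, and ARO2, for chorismate synthase, had log2 differences of -0.46 and -0.42 (limma adjusted p = 0.0728 and 0.0982). For both genes the ΔtR(CCU)J arrays were below the WT arrays without passing the test. The genes that finish phenylalanine and tyrosine, PHA2 (prephenate dehydratase) and TYR1 (prephenate dehydrogenase), had log2 differences of 0.16 and 0.14, near the median of all genes in this comparison.

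The aromatic aminotransferases were not alike in their spread. ARO8, the constitutive enzyme, had 11.30 and 11.34 in ΔtR(CCU)J, against 11.76, 11.60 and 11.65 in WT, a log2 difference of -0.35 (limma adjusted p = 0.0802). ARO9, which aromatic amino acids induce through Aro80, had 9.57 and 8.97 in ΔtR(CCU)J, against 10.39, 7.67 and 10.19 in WT. With replicate 2 of WT so far from the other WT arrays, its difference of -0.15 had an SE of 0.71, and nothing can be read from it. ARO10, the phenylpyruvate decarboxylase gene that Aro80 also controls, was likewise low on that WT array (9.86, 7.37 and 9.54 in WT).

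In branched-chain synthesis, ILV3 was the single call. It encodes dihydroxyacid dehydratase, shared by isoleucine and valine synthesis, and had 11.21 and 11.04 in ΔtR(CCU)J, against 11.87, 11.99 and 11.57 in WT. The log2 difference was -0.69 (SE 0.17, limma adjusted p = 0.0389), to 62.0% of the WT level. ILV1, for threonine deaminase at the head of isoleucine synthesis, had 10.54 and 10.58 in ΔtR(CCU)J, against 11.27, 11.02 and 10.85 in WT, a log2 difference of -0.49 just outside the threshold (limma adjusted p = 0.0628). ILV5 and ILV6, for the reductoisomerase and the regulatory subunit of acetolactate synthase, differed by -0.46 and -0.56 on the log2 scale without passing (limma adjusted p = 0.139 and 0.120). ILV2, the catalytic subunit of acetolactate synthase, differed by -0.22 (95% interval -0.75 to 0.30). In the leucine branch, LEU1, for isopropylmalate isomerase, differed by -0.11 on the log2 scale and was not called either.

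Isopropylmalate synthase is made from LEU4 and LEU9. LEU4 had 10.78 and 10.57 in ΔtR(CCU)J, against 11.45, 11.21 and 10.96 in WT, a log2 difference of -0.53 (limma adjusted p = 0.149). LEU9 overlapped WT, with 10.48 and 10.18 in ΔtR(CCU)J, against 10.72, 10.38 and 10.43 in WT. The branched-chain aminotransferases had fitted differences of opposite sign, neither past the test. BAT1, for the mitochondrial enzyme used mainly in synthesis, had 10.48 and 9.98 in ΔtR(CCU)J, against 10.93, 10.83 and 10.46 in WT, a log2 difference of -0.51 (limma adjusted p = 0.190). BAT2, for the cytosolic enzyme used mainly in breakdown, had 11.99 and 11.78 in ΔtR(CCU)J, against 11.47, 11.08 and 11.56 in WT, a log2 difference of 0.51 (limma adjusted p = 0.101). BAT2 was the one gene of the 33 with both ΔtR(CCU)J arrays above all WT arrays, while 31.6% of all genes showed that. With the replicate number as a block, ILV1, LEU4 and BAT1 were called lower against WT as well.

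**Figure D2:**
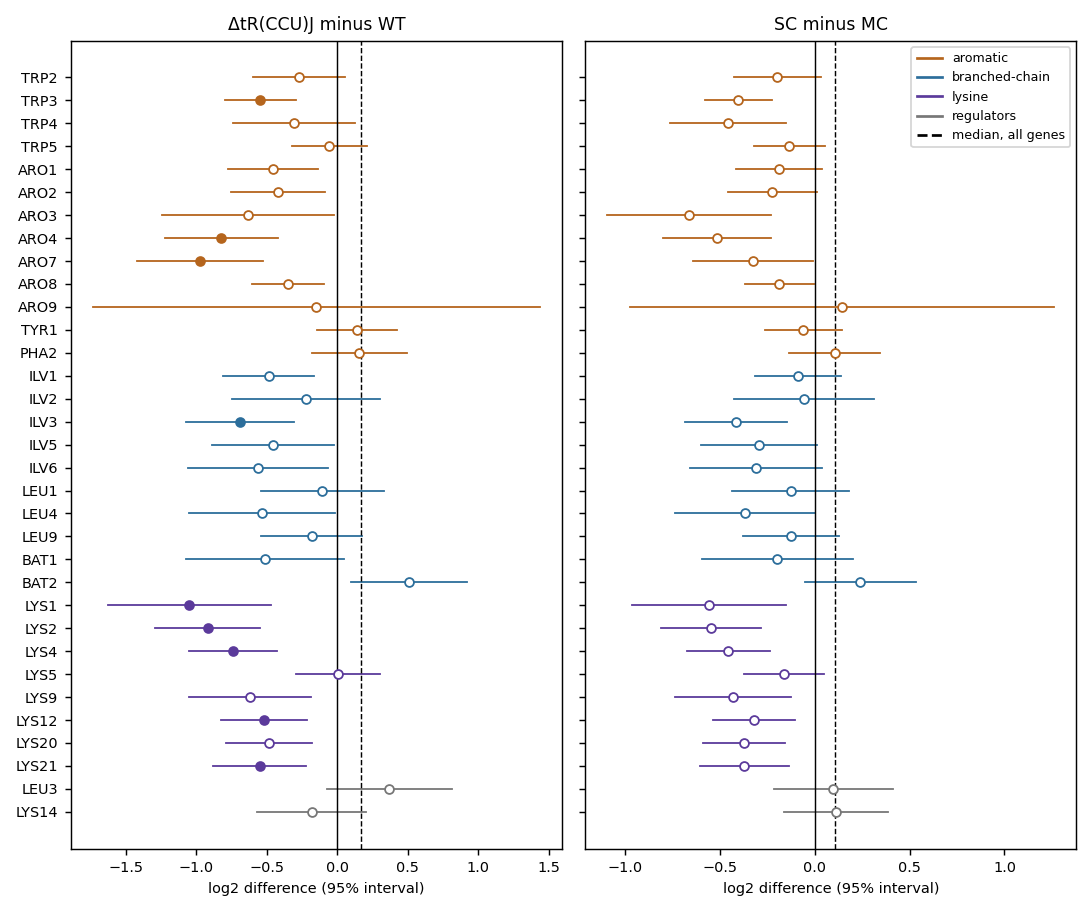
Log2 difference (horizontal axis) with its 95% interval for each of the 33 genes, for ΔtR(CCU)J minus WT on the left and SC minus MC on the right; filled points passed an adjusted p under 0.05 and open points did not. The solid line is 0 and the dashed line the median of all genes (0.17 on the left, 0.11 on the right); the 9 filled points on the left run from -1.05 to -0.52, and no point on the right is filled.

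Neither regulator gene was called. LEU3 had 8.70 and 8.27 in ΔtR(CCU)J, against 8.34, 8.17 and 7.83 in WT, a log2 difference of 0.37 (95% interval -0.08 to 0.81, limma adjusted p = 0.230). LYS14 had 9.37 and 9.16 in ΔtR(CCU)J, against 9.76, 9.35 and 9.23 in WT, a log2 difference of -0.18 (95% interval -0.57 to 0.21, limma adjusted p = 0.507). Both genes overlapped WT on the arrays, and the intervals do not show that either stayed at its WT level. Of 7 lysine genes listed from general knowledge as Lys14 targets, 5 fell (LYS1, LYS2, LYS4, LYS12 and LYS21), where 1.93% of all genes were called lower. That list is the lysine genes above without LYS5, so this count repeats the lysine calls and is not a separate result about Lys14. Of 8 genes listed as Leu3 targets, 1 fell and 1 rose, where 6.63% of all genes were called higher, and neither is among the 33. They were LEU2, which the stated genotype places under the MFα1 promoter, and GDH1, the NADP-dependent glutamate dehydrogenase gene, named here after its values were seen. GDH1 had 12.06 and 11.58 in ΔtR(CCU)J, against 11.37, 10.85 and 10.88 in WT, a log2 difference of 0.79 (limma adjusted p = 0.0384). The GDH1 difference from WT was no smaller in ΔtM(CAU) and ΔtL(GAG)G, at 0.93 and 1.18 on the log2 scale, although neither passed (limma adjusted p = 0.791 and 0.0944). GDH1 was called higher in SC than in MC, with a log2 difference of 1.08 (limma adjusted p = 0.0157). Every SC array lay above every MC array for GDH1, as for 5.47% of all genes.

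Among 7 further measured genes that act on these pathways, LEU2 fell and GCN2 rose in ΔtR(CCU)J, where 8.56% of all genes were called. LEU2 had 12.12 and 12.49 in ΔtR(CCU)J, against 12.99, 13.30 and 13.06 in WT, a log2 difference of -0.81 (limma adjusted p = 0.0252). In ΔtM(CAU) and ΔtL(GAG)G its log2 differences from WT were -0.39 and -0.26 and did not pass (limma adjusted p = 0.987 and 0.677). Every SC array lay below every MC array for LEU2, as for 2.15% of all genes. Of the 4 α-cell genes listed, SAG1, MF(ALPHA)2 and STE3 had log2 differences from WT of -1.12, -0.64 and -0.60 that did not pass (limma adjusted p = 0.0665, 0.193 and 0.126). MF(ALPHA)1 was higher by 9.03 (limma adjusted p = 0.000515). Against the other 4 deletion strains SAG1, STE3 and LEU2 were called lower, at -1.48, -0.78 and -0.70 (limma adjusted p = 0.0139, 0.0373 and 0.0143). In that comparison 3.38% of all genes were called lower. MF(ALPHA)2, at -0.82, was not called there (limma adjusted p = 0.0698), and MF(ALPHA)1 was higher by 4.39 (limma adjusted p = 0.0044). The part of the MFα1 promoter in the LEU2 values was not tested. The SC arrays did not show the stated MFα1 replacement, which would carry this LEU2. Whether ΔtR(CCU)J and WT hold the same LEU2 construct was not tested. GCN2, for the kinase that senses uncharged tRNA, had a log2 difference of 0.64 (limma adjusted p = 0.0481), to 156% of its WT level. Against the other 4 deletion strains its log2 difference of 0.46 did not pass (limma adjusted p = 0.0616). GCN2 had a mean log2 signal of 8.58, in the range of 7 to 10 where the median difference of all genes from WT was 0.27. GCN4 mRNA had 12.39 and 12.44 in ΔtR(CCU)J, against 12.60, 12.65 and 12.60 in WT. All WT arrays were higher, as for 12.5% of all genes, and the log2 difference of -0.20 did not pass (limma adjusted p = 0.226). GCN4 had a mean log2 signal of 12.55, in the range above 12 where the median difference of all genes from WT was -0.37. It was below all WT arrays in ΔtM(CAU) (12.51 and 12.42) and ΔtL(GAG)G (12.45 and 12.46) too, as were 6.04% and 10.8% of all genes. The mRNA levels do not show how much Gcn4 protein was made.

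**Figure D3:**
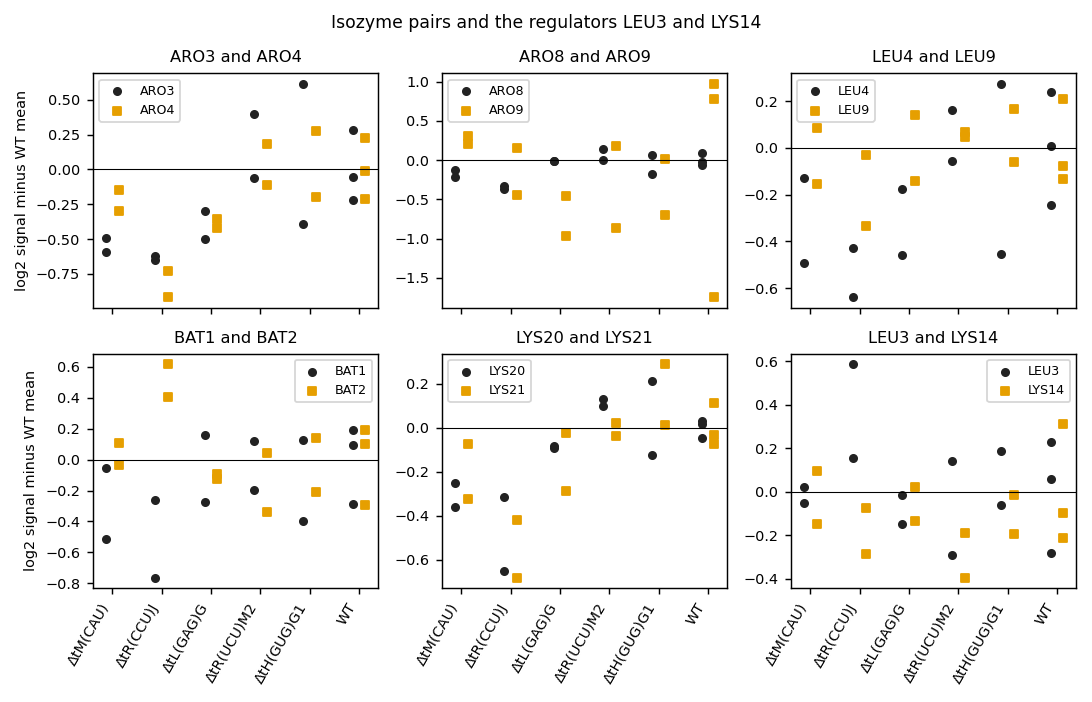
Log2 signal minus the WT mean (vertical axis) on each array for 5 isozyme pairs and for the regulators LEU3 and LYS14, by strain (horizontal axis); circles are the first gene of each pair and squares the second, and each panel has its own scale. In ΔtR(CCU)J the BAT2 squares lie above all WT squares while the BAT1 circles overlap those of WT, and the ARO9 squares of WT span 7.67 to 10.39 in log2 signal.

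To ask whether these levels differed from those of other deletions, the mean of ΔtR(CCU)J was set against the mean of the other 4 deletion strains. In this comparison 11 genes were lower and 1 was higher, with 3.38% of all genes called lower, 11.8% called higher and 15.2% called in either direction. The comparison shares the ΔtR(CCU)J arrays with the one against WT, so the 2 are not independent. The 9 genes called against WT were all called here too, with log2 differences of -1.13 for ARO7 (limma adjusted p = 0.00631), -0.96 for LYS1 (0.0219), -0.79 for LYS2 (0.0104), -0.69 for ARO4 (0.0213), -0.66 for ILV3 (0.0198), -0.63 for LYS4 (0.0119), -0.50 for TRP3 (0.0127), -0.50 for LYS21 (0.0312) and -0.40 for LYS12 (0.0477). ILV1 and LYS20 joined them, at -0.57 (limma adjusted p = 0.0183) and -0.42 (0.0410), the LYS20 call being lost with the replicate number as a block (limma adjusted p = 0.0575). BAT2 was the gene that was higher, at 0.58 (limma adjusted p = 0.0401), a call that was lost when each array was centred on its median (0.39, limma adjusted p = 0.0886). Across strain means, ΔtR(CCU)J was the lowest of the 6 strains for 24 of the 33 genes, and both of its arrays were below the 11 others for 17 genes, while this held for 6.7% of all genes. BAT2 was above the 11 others on both arrays, as were 19.6% of all genes.

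The calls in ΔtR(CCU)J rest on the estimate of spread shared by all 13 arrays. When only the ΔtR(CCU)J and WT arrays were fitted, 0 of the 33 genes passed, with adjusted p of 0.126 to 0.173 for the 9 genes, 18 genes at an unadjusted p under 0.05 and 5 genes called among all 5446. Without ΔtR(CCU)J replicate 1, only ARO7 was called against WT and against the other deletion strains, and without WT replicate 1 or 2, only LYS2 and LYS4 were called against WT.

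The differences between ΔtR(CCU)J and WT also moved with brightness. The pathway genes are bright, and 28 of the 33 had a mean log2 signal over 10, compared with 30.6% of all genes. Over all genes the median of this log2 difference was 0.27 at a mean log2 signal of 7 to 10, 0.05 at 10 to 11, -0.10 at 11 to 12 and -0.37 above 12. Within the same brightness ranges the 33 genes had medians of 0.01, -0.31, -0.53 and -0.50, each below that of all genes. The lysine, aromatic and branched-chain calls lay mainly in the range of 11 to 12, where 6 of 15 were called lower, against 5.25% of all genes there. Quantile normalization, which forces the arrays to 1 distribution, kept 7 of the 9 calls (TRP3, ARO4, ARO7, ILV3, LYS1, LYS2 and LYS4) and moved the medians of the 33 genes to -0.30, -0.39, -0.49 and -0.22. Medians of all genes in these ranges were not computed after that normalization, so the 4 values cannot be set against those of all genes above.

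**Figure D4:**
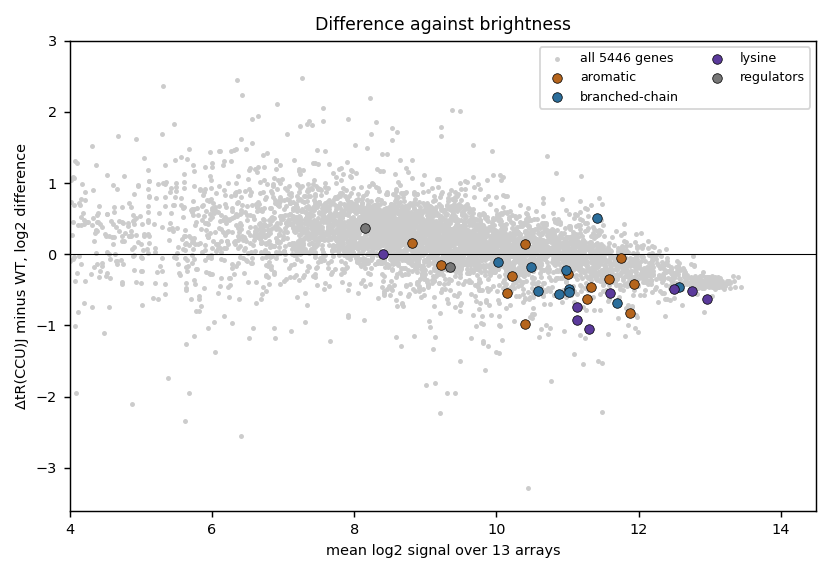
Log2 difference between ΔtR(CCU)J and WT (vertical axis) against the mean log2 signal over all 13 arrays (horizontal axis) for the genes tested (grey, of which 157 lie outside the axes) and the 33 pathway genes (coloured by list). The grey cloud drops with brightness, and most coloured points, apart from BAT2 and the dimmer genes, lie on its lower side; the median of the coloured points at 11 to 12 is -0.53, against -0.10 for all genes.

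Set side by side, lysine synthesis had the lowest median of the 3 pathways in ΔtR(CCU)J. On each array, the median deviation of a pathway's genes from their WT mean was taken relative to the median of all genes. For lysine it was -0.94 and -0.59 in ΔtR(CCU)J, against -0.02, 0.03 and -0.07 in WT. For aromatic synthesis it was -0.59 and -0.46 in ΔtR(CCU)J, against 0.07, -0.01 and -0.11 in WT. For branched-chain synthesis it was -0.55 and -0.58 in ΔtR(CCU)J, against 0.18, 0.01 and -0.23 in WT. WT values lie near 0 by construction. Every ΔtR(CCU)J value was below every WT value, and lysine had the lowest of the 3 medians on both ΔtR(CCU)J arrays. Lysine was the lowest of the 3 on all 6 SC arrays, on 1 of 4 MC arrays and on 1 of 3 WT arrays, and the difference between pathways was not tested. The within-strain SD of these medians was 0.17 for lysine, 0.08 for aromatic and 0.18 for branched-chain genes. On ΔtR(CCU)J replicate 2 the lysine and branched-chain medians were almost level, at -0.589 and -0.583. The medians are not matched for brightness, with which the difference between ΔtR(CCU)J and WT moved. Above a mean log2 signal of 12, where that difference had a median of -0.37 over all genes, lay LYS9, LYS12, LYS20 and ILV5. The part of brightness in the order of the pathways was not tested. ΔtM(CAU) and ΔtL(GAG)G came next for lysine, at -0.23 and -0.41 in ΔtM(CAU) and -0.14 and -0.35 in ΔtL(GAG)G. These lay below all WT arrays. ΔtR(UCU)M2 had 0.09 on both arrays, above all WT arrays, and the ΔtH(GUG)G1 arrays lay on either side of WT at 0.23 and -0.19.

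**Figure D5:**
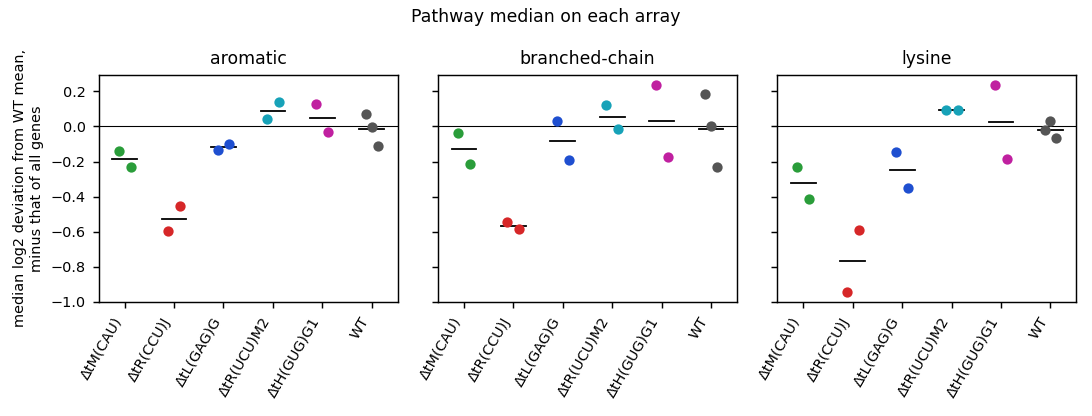
Median log2 deviation from the WT mean of each pathway's genes minus that of all genes (vertical axis) on each array, by strain (horizontal axis); points are arrays and short lines strain means. For lysine the ΔtR(CCU)J arrays sit at -0.94 and -0.59, the ΔtM(CAU) and ΔtL(GAG)G arrays between -0.41 and -0.14, and the WT arrays between -0.07 and 0.03.

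In the other 4 deletion strains, 0 of the 33 genes passed against WT. The share of all genes called was 0.0367% in ΔtM(CAU), 0.0551% in ΔtL(GAG)G and 0 in ΔtR(UCU)M2 and ΔtH(GUG)G1. At an unadjusted p under 0.05 in limma there was 1 gene of the 33 in ΔtM(CAU), 2 in ΔtL(GAG)G and 0 in both MC strains, where 72 and 95 of all genes reached it in ΔtR(UCU)M2 and ΔtH(GUG)G1. All 3 were lower, as were 0.533% of all genes in ΔtM(CAU) and 3.71% in ΔtL(GAG)G at that level. In ΔtM(CAU) the gene was LYS20, with 12.36 and 12.25 against 12.64, 12.56 and 12.63 in WT (limma adjusted p = 0.987). All 8 lysine genes had fitted differences below 0 in ΔtM(CAU) and in ΔtL(GAG)G, where 35.7% and 42% of all genes did. In ΔtR(UCU)M2 and ΔtH(GUG)G1 it was 1 and 2 of the 8, where 57.3% and 51.7% of all genes did. Both arrays lay below all WT arrays for 6 of 8 lysine genes in ΔtM(CAU), as for 6.04% of all genes, and for 4 of 8 in ΔtL(GAG)G, as for 10.8% of all genes. These comparisons share the WT arrays with that of ΔtR(CCU)J.

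ΔtL(GAG)G, which lacks a leucine tRNA gene, stood apart in TRP4, for anthranilate phosphoribosyltransferase of tryptophan synthesis. TRP4 had 9.41 and 9.59 in ΔtL(GAG)G, against 10.82, 10.15 and 10.20 in WT, and all other arrays lay between 10.07 and 10.82. The log2 difference was -0.89 (SE 0.19) and did not pass (limma adjusted p = 0.218). LYS5 had 8.08 and 8.12 in ΔtL(GAG)G, against 8.26, 8.51 and 8.55 in WT, a log2 difference of -0.34 (limma adjusted p = 0.601). These were the 2 genes of the 33 with both ΔtL(GAG)G arrays below all 11 others, as were 2.88% of all genes. Against the other 4 deletion strains, TRP4 had a log2 difference of -0.82 (limma adjusted p = 0.124) and 0 of the 33 genes were called, with 0.165% of all genes called. Of the branched-chain genes, ILV1 was on the high side in this strain (11.45 and 11.21, against 11.27, 11.02 and 10.85 in WT) and LEU4 on the low side (11.03 and 10.75, against 11.45, 11.21 and 10.96 in WT), neither past the test (limma adjusted p = 0.647 and 0.703). ARO4 had 11.73 and 11.67 in ΔtL(GAG)G, against 12.08, 12.32 and 11.88 in WT, and LYS4 had 11.26 and 10.85, against 11.45, 11.28 and 11.23 in WT. ARO4 was below all WT arrays and LYS4 overlapped them, and neither passed (limma adjusted p = 0.631 and 0.649).

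The grouping of the study sets the 3 SC strains against the 2 MC strains. Its own pathway analysis of these arrays names the 3 pathways, so the direction found here is not independent evidence. The mean of the SC strains was below that of the MC strains for 8 of 8 lysine, 11 of 13 aromatic and 9 of 10 branched-chain genes, while 34.5% of all genes were. None of the 33 passed in limma (0.22% of all genes did), and 15 were lower and 0 higher at an unadjusted p under 0.05, a level at which 8.83% of all genes were lower. Relative to the median of all genes, the medians of the log2 differences were -0.51 for lysine, -0.31 for aromatic and -0.27 for branched-chain genes. Neither these medians nor the shares above are matched for brightness, with which this difference moved too. Over all genes its median was 0.18 at a mean log2 signal of 7 to 10, 0.03 at 10 to 11, -0.05 at 11 to 12 and -0.29 above 12. In these ranges the 33 genes had medians of 0.10, -0.20, -0.37 and -0.35. After quantile normalization the medians of the 33 genes were -0.06, -0.24, -0.32 and -0.08, and those of all genes were not computed.

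TRP3 came nearest to the threshold. Its log2 signal on the 6 SC arrays ran from 9.60 through a median of 10.04 to 10.11, against 10.33, 10.37, 10.47 and 10.27 on the MC arrays. The groups did not overlap, and the log2 difference was -0.40 (SE 0.08, limma adjusted p = 0.0505). LYS4 ran from 10.56 through 10.95 to 11.26 in SC, against 11.38, 11.33, 11.45 and 11.28 in MC, a log2 difference of -0.46 (limma adjusted p = 0.0539). TRP3 and LYS4 were the 2 genes of the 33 with every SC array below every MC array, as were 2.15% of all genes. LYS2 overlapped, from 10.39 through 10.89 to 11.27 in SC, against 11.35, 11.52, 11.53 and 11.19 in MC (log2 difference -0.55, limma adjusted p = 0.0539).

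The remaining leading genes overlapped too. ARO4 ran from 11.18 through 11.70 to 11.95 in SC, against 12.27, 11.98, 12.37 and 11.89 in MC, a log2 difference of -0.52 (limma adjusted p = 0.0616). ILV3 ran from 11.04 through 11.56 to 11.86 in SC, against 11.92, 11.98, 12.09 and 11.62 in MC, a log2 difference of -0.42 (limma adjusted p = 0.0743). LEU4 ran from 10.57 through 10.76 to 11.08 in SC, against 11.37, 11.15, 11.48 and 10.76 in MC, a log2 difference of -0.37 (limma adjusted p = 0.167). For each of the 3 genes it was ΔtH(GUG)G1 replicate 2 that gave the lowest MC value. Without that array 12 of the 33 genes were called lower in SC, and with the replicate number as a block in a fit of the deletion arrays alone, TRP4 and LYS4 were. The aromatic median relative to all genes was -0.19 without ΔtR(CCU)J, against -0.31 with it. By strain, the lysine medians per array given above averaged -0.77 in ΔtR(CCU)J, -0.32 in ΔtM(CAU) and -0.25 in ΔtL(GAG)G. The branched-chain medians averaged -0.565, -0.13 and -0.08 in the same order, so ΔtR(CCU)J was the lowest SC strain for both. LEU3 and LYS14 had log2 differences of 0.10 and 0.11 between SC and MC (95% intervals -0.22 to 0.41 and -0.16 to 0.38), close to the median of all genes (0.11).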

How the data were processed

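The authors deposited 1 intensity per probe set and array on a linear scale. Their methods name RMA background adjustment and normalization between arrays, and the labels name GCRMA without a version. The deposited intensities had a trimmed mean of 500.2 to 500.3 on every array, with 2% trimmed at each end, while their quantiles differed. Log2 was taken with no offset. Of 10928 probe sets, 5495 are paired with a single S. cerevisiae protein-coding gene and cover 5446 genes, and the brightest probe set was used for the 47 genes with several. Background was the 95th percentile of 1739 S. pombe probe sets (12.9 to 21.6), which 96.5 to 98.3% of genes exceeded. No column belonged to samples of another series. TRP1 was not analysed here, and no promoter or protein sequences were used here.

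Limma 3.58.1 in R 4.3.3 fitted all 13 arrays with 1 mean per strain, a constant prior variance (7 residual degrees of freedom and a prior of 2.67) and Benjamini-Hochberg adjustment over all genes, with calls at an adjusted p under 0.05. The steps were tested on simulated data. Alternatives were a replicate block, median centring, quantile normalization, a filter on a mean log2 signal over 8, the mean of probe sets, a trended and robust prior, an offset of 50, fits of only the arrays compared, and leaving out each array or strain. Per-array values are given, by a rule set with the gene lists, for genes called in any comparison, for the 2 genes of each pathway with the smallest p in 3 comparisons (SC against MC, and ΔtR(CCU)J and ΔtL(GAG)G against WT), and for the regulators and isozyme pairs, LEU2, GCN4 and MF(ALPHA)1. Other genes were named after their values were seen. The genes and lists were chosen with earlier results of these data known.

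Whether equal replicate numbers mark paired cultures was examined with 3992 genes. Deviations of same-numbered arrays from their strain means correlated at 0.125 to 0.672 in every pair of deletion strains. WT correlated at 0.54, 0.50 and 0.44 with ΔtM(CAU), ΔtR(CCU)J and ΔtL(GAG)G of SC. With ΔtR(UCU)M2 and ΔtH(GUG)G1 of MC, WT correlated at -0.27 and -0.06. Pairing of WT arrays with MC arrays by number was thus not seen, although a replicate block in a fit that includes WT assumes it. The study's methods say that each fold change was taken against wild type of its own batch. The sources used here do not give the batch of each array, so that matching was not reproduced. The main fit used the mean of all 3 WT arrays. That equal replicate numbers mark paired deletion arrays is inferred from the data. The number of arrays limits the precision.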

Additional observations from a re-analysis of the deposited data

Results flagged for a closer look

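Of 66 groups of arrays examined for a single stray value (each of the 33 genes in SC and in MC), 3 had one by Dixon's test at its 95% critical value, a level that chance reaches in about 5% of groups. In TRP4, ΔtH(GUG)G1 replicate 2 had a log2 signal of 10.19, with the nearest other MC array at 10.48. In ILV6, ΔtR(UCU)M2 replicate 1 had 10.71, with the nearest other MC array at 11.14. In LYS9, ΔtR(CCU)J replicate 1 had 12.23, with the nearest other SC array at 12.76.

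For 12 genes the difference between ΔtR(CCU)J and the other 4 deletion strains passed the test of that difference itself (limma, adjusted over all genes). The log2 differences were -0.50 for TRP3, -0.69 for ARO4, -1.13 for ARO7, -0.57 for ILV1, -0.66 for ILV3, 0.58 for BAT2, -0.96 for LYS1, -0.79 for LYS2, -0.63 for LYS4, -0.40 for LYS12, -0.42 for LYS20 and -0.50 for LYS21. ARO7 kept its call in all 23 alternatives that were run, with limma adjusted p of 0.00256 to 0.0316. LYS20 kept its call in 9 of 23 and LYS12 in 11 of 23.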

How the results depend on the processing

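No fitted difference of a called gene changed its sign under any alternative run. For ΔtR(CCU)J against WT (9 genes called), the count was 0 when only the arrays compared were fitted and ranged from 1 to 10 when each array was left out: 1 without ΔtR(CCU)J replicate 1, 5 without its replicate 2, 2 without WT replicate 1 or 2, 3 without either ΔtM(CAU) array, 4 without either ΔtL(GAG)G array and 5 without either ΔtR(UCU)M2 array. Against the other 4 deletion strains (12 genes), it ranged from 1 without ΔtR(CCU)J replicate 1 and 6 without its replicate 2 to 16. For ΔtL(GAG)G against the other 4 strains it was 0 to 1, the gene being TRP4 without WT replicate 1. For SC against MC (0 genes), the count was 3 with median centring, 1 with quantile normalization, 5 with the filter on dim genes, 8 with the trended and robust prior, 5 with an offset of 50, 3 without ΔtM(CAU), and 0 to 12 when each array was left out (12 without ΔtH(GUG)G1 replicate 2, 1 without WT replicate 2 or ΔtR(CCU)J replicate 2). The SC against MC medians relative to all genes were -0.18 (aromatic) and -0.34 (lysine) with quantile normalization and -0.19 (aromatic) without ΔtR(CCU)J. Leaving out each array gave -0.38 to -0.22 for aromatic, -0.38 to -0.16 for branched-chain and -0.61 to -0.39 for lysine genes. Median centring turned the split of all genes in ΔtR(CCU)J against WT to 75 higher and 153 lower, against 361 and 105 without it. The causes were not tested.

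Fitted with a block for the replicate number, 10 genes were called in ΔtR(CCU)J against WT (LYS12 and LYS21 lost, ILV1, LEU4 and BAT1 gained), 12 against the other 4 deletion strains (BAT1 in place of LYS20) and 0 in SC against MC. With blocks added after seeing the data, SC against MC had 2 called genes in a fit of the deletion arrays only (TRP4 and LYS4) and 2 with median centring as well (LYS2 and LYS4), and ΔtR(CCU)J against the other 4 deletion strains had 14 and 18. Within replicate 1 alone, the SC against MC medians were -0.61 for lysine, -0.35 for aromatic and -0.28 for branched-chain genes, and within replicate 2 they were -0.36, -0.36 and -0.27, with 0 genes called in either. In the 5 other comparisons of 8, no gene was called with or without a block.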
